A study of Rattus norvegicus with 24 samples.

Results

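The water channels Aqp1 and Aqp4 and 7 genes of the dystrophin-associated complex were followed in the tibialis anterior (TA), the muscle on the front of the lower leg that lifts the foot, of aged male Fischer 344 rats. The 9 members are Aqp1, Aqp4, Dmd, Utrn, Dag1, Sntb1, Sgca, Sgcb and Sgcd, out of 13458 gene symbols in the expression table, and each is described by the transcript row with its highest mean. They were chosen partly by measured values, because Aqp4 was much lower in silenced limbs, so that the Aqp4 differences between limbs of treated animals are given as a description with no test. The animals were 23 ± 1 months old, and in 9 of them the left common peroneal nerve, which drives the TA, was silenced with tetrodotoxin (TTX), a blocker of voltage-gated sodium channels, delivered by an osmotic pump through a cuff around the nerve. The left TA was taken after 6 to 7 days of TTX (atrophy, animals 362, 367 and 372), after TTX and a further 9 days without it (recovery, animals 369, 370 and 371) or after that interval and a second TTX period of 5 to 6 days (repeated atrophy, animals 364, 365 and 366). The untreated right TA of these 9 animals was the control group. Animals 354, 377 and 379 carried the label sham, with 1 at each time point, and gave 3 left and 3 right limbs, which brought the total to 24 limbs of 12 animals. The control limbs are therefore limbs of treated animals and not of untreated ones.

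Values are CPM, reads of a transcript scaled so that a sample sums to 1000000. The depth behind a sample, read from the spacing of its lowest values, was 18.9 to 30.9 in units of 1000000 reads, so that 1 read corresponded to 0.0324 to 0.053 CPM. Differences are log2 fold changes (log2 FC) of CPM + 1, a scale that understates the change of low genes. A row was called where the fold change was at least 1.2 and the limma p-value, adjusted by Benjamini-Hochberg over all rows tested, was at most 0.05. The median log2 FC of all rows was 0.22 in atrophy, 0.02 in recovery and 0.20 in repeated atrophy against control, and it was 0.00, 0.01 and −0.01 once samples were rescaled by trimmed means (TMM, the trimmed mean of M-values). The member values are therefore given on both scales wherever the scale moves a call. The skeletal muscle label was checked against 10 muscle fibre markers, whose summed level was 157800 to 222000 CPM over the control limbs. Atrophy limbs had 76750 to 166800, recovery limbs 182700 to 197600 and repeated atrophy limbs 99530 to 134700 CPM. The fast myosin genes Myh4, Myh1 and Myh2 summed to at least 101900 CPM in control, and to 40600 to 107100 in atrophy and 56490 to 71850 in repeated atrophy. In whole muscle, fewer cells of a type and less RNA per cell cannot be told apart. The left limb of atrophy animal 367 stood apart from the other 2 atrophy limbs. Its 10 highest rows held 25.6% of its CPM, against 13% in animal 362 and 15.6% in animal 372, and its TMM factor was 1.00 against 1.30 and 1.26. Its muscle fibre markers summed to 166800 CPM, within the control range, and those of the other 2 limbs to 76750 and 93820. How fully TTX silenced the nerve of animal 367 was not tested, and every atrophy mean holds this limb. Without animal 367, Dmd was again the only 1 of the 8 tested members called in atrophy (log2 FC 1.05, adjusted p = 0.0082), and the other 7 ran from −0.22 for Aqp1 to 0.39 for Sntb1. In that fit 4302 of 13998 rows were called higher and 539 lower.

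Aquaporins are membrane channels that let water pass down an osmotic gradient. In muscle, aquaporin 4 sits in the surface membrane of fast-twitch fibres, and aquaporin 1 is best known from the endothelium of small vessels and from red cells. The dystrophin-associated complex links the actin cytoskeleton to the basement membrane: dystrophin binds actin on the inside, dystroglycan binds laminin on the outside, the sarcoglycans steady the pair in the membrane, and the syntrophins bind signalling and channel proteins, aquaporin 4 among them. Utrophin is a relative of dystrophin that in adult muscle is concentrated at the neuromuscular junction. Loss of dystrophin or of a sarcoglycan is known to cause muscular dystrophy.

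The table lists Aqp4 in 4 rows that begin at 2 positions on the minus strand of chromosome 18 (rn7), 6524359 and 6523443, 916 bases apart, and that share an end at 6507903. RefSeq lists 2 Aqp4 promoters in the GRCr8 build that are also 916 bases apart, and their 250 bases before each start are printed because both starts carried Aqp4 reads in this muscle. Capitals mark E-boxes (CANNTG on either strand), the motif that basic helix-loop-helix factors bind.

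Aqp4 upstream start, GRCr8 chr18:6798843-6799092, minus strand: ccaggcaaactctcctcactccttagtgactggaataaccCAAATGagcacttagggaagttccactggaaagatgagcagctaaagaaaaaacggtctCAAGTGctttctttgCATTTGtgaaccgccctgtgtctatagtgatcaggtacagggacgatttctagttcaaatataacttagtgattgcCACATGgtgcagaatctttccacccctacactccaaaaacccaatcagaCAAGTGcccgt

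Aqp4 downstream start, GRCr8 chr18:6797927-6798176, minus strand: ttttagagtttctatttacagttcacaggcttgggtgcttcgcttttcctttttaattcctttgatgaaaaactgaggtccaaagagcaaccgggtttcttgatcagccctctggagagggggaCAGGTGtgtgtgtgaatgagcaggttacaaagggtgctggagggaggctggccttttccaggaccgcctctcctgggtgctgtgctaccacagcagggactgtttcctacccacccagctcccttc

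The upstream window held 5 E-boxes and the downstream window 1. Of 33469 promoter windows of 250 bases, 65.5% held at least 1 E-box and 0.923% held 5 or more. The FoxO core motif (GTAAACA, either strand), present in 3.21% of windows, was in none of the 10 windows listed for the 7 members matched (Aqp1, Aqp4, Dmd, Utrn, Sgca, Sgcb and Sgcd). Sgca held 2 E-boxes, Sgcd 1 and the first of the 3 Dmd windows 1, and the windows of Aqp1, Sgcb and Utrn held none. These matches describe letters in a window and not binding.

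Aqp4 was at 0.491 to 8.96 CPM in 5 of the 6 limbs sampled during TTX and at 24.03 CPM or more in all other limbs. Summed over its 4 rows, it was 2.57 CPM in the left limb of atrophy animal 362, 153 in animal 367 and 1.26 in animal 372. In repeated atrophy it was 8.96 CPM in animal 364, 0.491 in animal 365 and 1.65 in animal 366, all below every control limb. In recovery the sums were 153, 182 and 54.7 CPM (animals 369, 370 and 371). The 9 control limbs ranged from 24.03 to 312 CPM with a median of 152, and the lowest was the right limb of animal 372, while the other 8 were at 103 CPM or more. Recovery limbs lay inside the control range, and so did the left limb of atrophy animal 367.

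**Figure D1:**
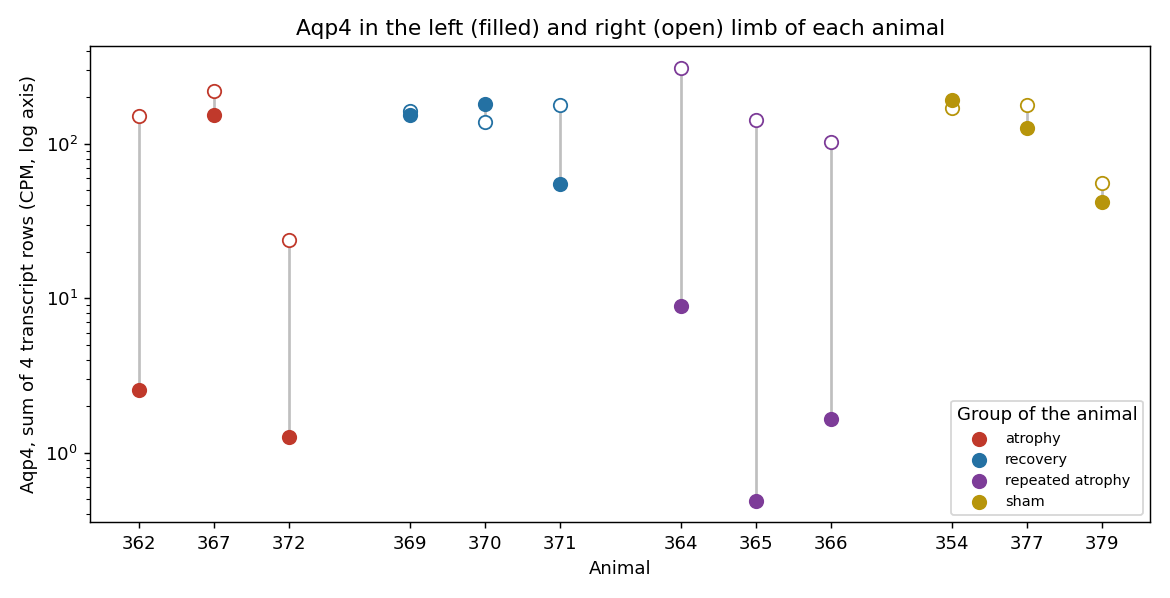
Aqp4, summed over its 4 transcript rows in CPM on a log axis, for each animal (x axis), with the left limb filled and the right limb open and a line joining both. The left limbs of animals 362, 372, 364, 365 and 366 sit between 0.491 and 8.96 CPM, whereas the left limb of animal 367, the recovery limbs and the sham limbs sit at 41.9 CPM or above.

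Compared within animals, the left limb had lower summed Aqp4 in 3 of 3 atrophy animals and 3 of 3 repeated atrophy animals. The mean difference in log2 of summed CPM + 1, left minus right, was −3.14 ± 2.47 (SD, n = 3) in atrophy and −5.62 ± 0.86 in repeated atrophy, and animal 367 of atrophy was at −0.52. In recovery it was −0.46 ± 1.09, lower in 2 of 3 animals, and animal 371 was at −1.69. Sham animals differed by −0.24 ± 0.37 between limbs. For the main row alone (length 4845 bases), the log2 FC against control was −2.91 in atrophy, −0.12 in recovery and −4.74 in repeated atrophy. Leaving out each animal moved the atrophy value between −4.50 (without animal 367) and −2.05 (without animal 362), with −2.28 without animal 372. The recovery value ran from −0.44 to 0.49, and it turned positive without animal 371 (0.49) or animal 364 (0.056).

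All 4 rows had lower means in atrophy and repeated atrophy than in control, while their recovery values differed. The main row averaged 59.0 ± 35.0 CPM in control (n = 9), 24.4 ± 40.3 in atrophy, 52.5 ± 28.0 in recovery and 1.39 ± 2.04 in repeated atrophy (n = 3 each). The second row of the upstream start (5010 bases) was 47.0 ± 17.6 in control, 24.8 ± 13.7 in recovery and 1.28 ± 1.28 in repeated atrophy, and in recovery it was lower on the left in 3 of 3 animals. The 2 rows of the downstream start were 32.0 ± 31.2 and 21.4 ± 10.1 CPM in control and 0.590 ± 0.828 and 0.447 ± 0.567 in repeated atrophy. In recovery they were 35.6 ± 16.9, above the control mean, and 16.99 ± 8.59, below it. In the 19 limbs with at least 10 CPM in all, the upstream start held 55.1% to 83.4% of the Aqp4 sum. The recovery limbs were at 55.1% to 61.3% and the control limbs at 56.4% to 83.4%, so that the groups overlapped. The rows share most of their sequence, and how reads were divided among them is not given in the sources used here.

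The 5 rows most like Aqp4, by Pearson's r of log2(CPM + 1) with its main row over the 18 limbs of treated animals, among 6701 rows averaging at least 10 CPM, were Ppp1r3c (r = 0.97), Cd1d1, Cmbl, Rasgrp3 and Fbp2 (each r = 0.96). These limbs come in pairs from 9 animals and in 4 groups that differ in many genes, so the values are a description. Ppp1r3c, a glycogen-targeting subunit of protein phosphatase 1, averaged 693 CPM in control, 332 in atrophy, 517 in recovery and 97.6 in repeated atrophy. Fbp2, the muscle fructose-bisphosphatase, averaged 95.0, 30.5, 103 and 2.75 CPM in the same order. The left limb of animal 367 had 769 CPM of Ppp1r3c and 84.5 of Fbp2, and the right limb of animal 372 had 489 and 17.6. Likeness to Aqp4 in these limbs is part of what chose the rows. Among the other 8 members, r with Aqp4 ran from −0.60 for Dag1 to 0.62 for Sgcb.

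Genes whose products act with aquaporin 4 in other tissues were also examined. Of 6 genes listed, 4 were in the table, and Kcnj10 and Mlc1 were not analysed here. In repeated atrophy 1 of 4 was called lower and 0 higher, where 6.24% and 28.1% of all rows were, the cation channel Trpv4 (log2 FC −0.59, adjusted p = 0.011), which averaged below 1 CPM in control and lost its call without animal 364 (adjusted p = 0.11). Atp1b1, a beta subunit of the sodium pump, was called lower in repeated atrophy than in recovery (−1.51, adjusted p = 0.0062), and not in the blocked fit, with the animal as a term (−0.99, adjusted p = 0.35).

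Aqp1, the vessel and red cell water channel, had the highest level per length of the members in control and fell in repeated atrophy. Its control limbs ranged from 327 to 482 CPM with a median of 369. Atrophy limbs had 345, 326 and 318 CPM (animals 362, 367 and 372), at the lower edge of control. Recovery limbs had 277, 263 and 306 CPM and lay below all 9 control limbs. Repeated atrophy limbs had 228, 243 and 339 CPM, of which the last (animal 366) overlapped control. The log2 FC was −0.52 in repeated atrophy (SE 0.14, adjusted p = 0.0093) and −0.54 in the blocked fit (adjusted p = 0.014). It was −0.43 in recovery (adjusted p = 0.067) and −0.21 in atrophy (adjusted p = 0.31). Left minus right, Aqp1 was lower in 3 of 3 animals of recovery (mean −0.55 ± 0.10, SD) and 3 of 3 of repeated atrophy (−0.54 ± 0.04), and by −0.07 ± 0.03 in atrophy. It was also lower on the left in 3 of 3 sham animals (−0.21 ± 0.04). Rescaling by TMM gave −0.57 in atrophy, which was then called (adjusted p = 0.030), and −0.90 in repeated atrophy (adjusted p = 5.1e-04). The repeated atrophy call was lost without animal 364 (−0.43, adjusted p = 0.055) or animal 365 (−0.46, adjusted p = 0.082).

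Beside Aqp1, 10 endothelial markers summed to 289 to 380 CPM over control limbs. The sums were 306 to 342 for atrophy, 266 to 270 for recovery and 229 to 325 for repeated atrophy limbs. Of the 10, 1 was called lower in recovery, the tight junction gene Cldn5, and 1 in repeated atrophy, the receptor Tie1, where 3.33% and 6.24% of all rows were called lower. After TMM, 7 of the 10 were called lower in repeated atrophy, beside 12.1% of all rows, and with the block 0 of 10, beside 5.66%. Red cell markers, 6 of 7 in the table, summed to 412 to 2045 CPM in control and 342 to 851 in repeated atrophy, and none was called in any comparison. The part of these cells in the Aqp1 difference was not tested.

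Among the other aquaporins, 4 of 10 listed genes were in the table, and Mip, Aqp2, Aqp5, Aqp6, Aqp8 and Aqp12a were not analysed here. Aqp7, a channel for water and glycerol known from fat cells and muscle, was the only one called, lower in repeated atrophy, where 6.24% of all rows were. It averaged 1.56 ± 0.77 CPM in control (n = 9), 2.07 ± 1.35 in atrophy, 3.04 ± 2.61 in recovery and 0.186 ± 0.149 in repeated atrophy. Its log2 FC in repeated atrophy was −1.07 against control (SE 0.35, adjusted p = 0.025; −1.04 and adjusted p = 0.037 with the block). Against recovery it was −1.51 (adjusted p = 0.016), a call lost with the block (adjusted p = 0.11). Leaving out any 1 repeated atrophy animal raised the adjusted p against control to between 0.075 and 0.11. Aqp9 and Aqp11 averaged below 0.4 CPM in every group and Aqp3 was above 0 in too few limbs to be tested.

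**Figure D2:**
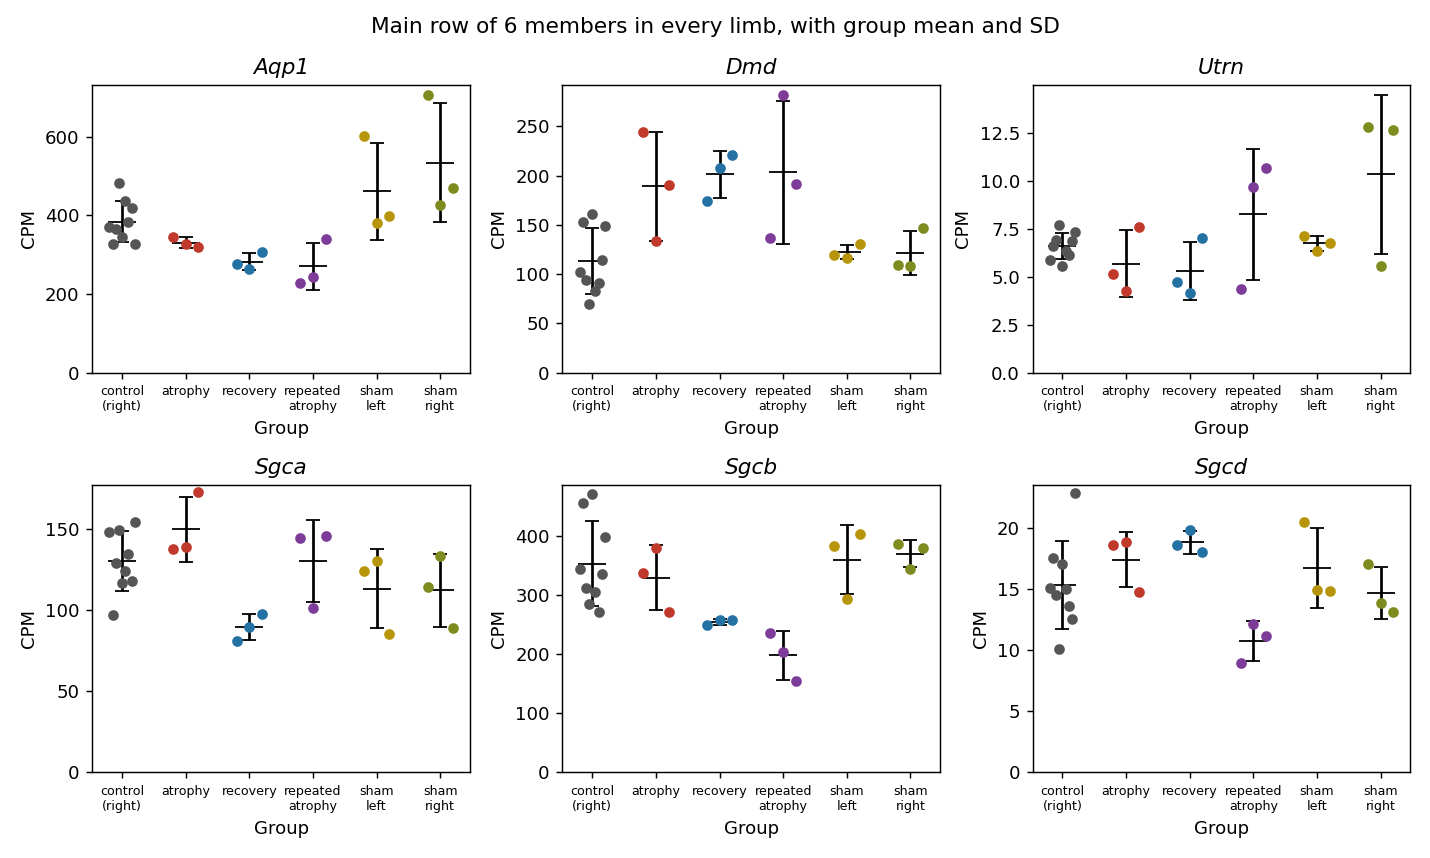
CPM of the main row of 6 members (y axes, from 0) in every limb by group (x axes), with the group mean (bar) and SD (whiskers), n = 9 in control and 3 in each other group. Sgcb in repeated atrophy (154 to 236 CPM) lies below all control limbs (272 to 470), and Dmd in recovery (175 to 221 CPM) lies above them (70.1 to 161).

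Dmd encodes dystrophin, and its full-length row (chromosome X, 47272324 to 49504212, rn7, plus strand, 13811 bases of transcript) was higher in all 3 treated groups. Control limbs ranged from 70.1 to 161 CPM with a median of 102. Atrophy limbs had 244, 134 and 190 CPM (animals 362, 367 and 372), recovery limbs 175, 208 and 221, and repeated atrophy limbs 137, 281 and 191 (animals 364, 365 and 366). Recovery limbs were all above control, while animal 367 of atrophy and animal 364 of repeated atrophy lay within the control range. The log2 FC was 0.75 in atrophy (SE 0.25, adjusted p = 0.041), 0.87 in recovery (adjusted p = 0.043) and 0.83 in repeated atrophy (adjusted p = 0.017).

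These Dmd calls depended on the scale, the pairing and single animals. Rescaled by TMM, the log2 FC was 0.39 in atrophy (adjusted p = 0.28) and 0.45 in repeated atrophy (adjusted p = 0.15), both lost, whereas recovery kept its call (0.85, adjusted p = 0.020). Under the animal block, the log2 FC was 0.44 (adjusted p = 0.47), 1.07 (adjusted p = 0.17) and 0.95 (adjusted p = 0.056) in atrophy, recovery and repeated atrophy, and none was called. Over all 14031 rows, the block called 0 in atrophy, 9 in recovery and 3806 in repeated atrophy. Its losses in atrophy and recovery thus fell on nearly every call and were not particular to Dmd. Leaving out animal 362 likewise left 1 call among 13993 rows in atrophy. Left minus right, Dmd was higher in 2 of 3 animals of atrophy, 3 of 3 of recovery and 2 of 3 of repeated atrophy. In repeated atrophy the call was lost without animal 365 (0.54, adjusted p = 0.21) or animal 366 (adjusted p = 0.063). In atrophy it was lost without any of animals 362, 372, 369, 370, 371, 365 and 366 (adjusted p between 0.055 and 0.33), and in recovery without any of 362, 369, 370, 371, 365 and 366 (between 0.055 and 0.16). The other 3 Dmd rows, of about 2000 bases at the 3′ end of the gene, averaged below 0.3 CPM in every group of treated animals.

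Utrn, the utrophin gene, was low and was called in none of the comparisons. Control limbs ranged from 5.57 to 7.68 CPM, atrophy limbs had 5.13, 4.26 and 7.61, recovery limbs 4.71, 4.13 and 7.00, and repeated atrophy limbs 4.35, 9.68 and 10.7 (animals 364, 365 and 366). The log2 FC against control was −0.21, −0.29 and 0.21 in that order (adjusted p = 0.54, 0.44 and 0.52), and TMM turned the last to −0.13. The repeated atrophy limbs lay on both sides of the control range. Per kilobase of transcript in control, Utrn was at 0.615 ± 0.064 CPM and Dmd at 8.18 ± 2.41 (SD, n = 9), with no overlap between limbs.

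Dag1, whose product is cut into alpha- and beta-dystroglycan, was not called in any of the 8 comparisons. It had 220 to 292 CPM in control, 377, 260 and 291 in atrophy, 249, 267 and 296 in recovery and 221, 322 and 363 in repeated atrophy. The log2 FC was 0.25, 0.08 and 0.21 (adjusted p = 0.23, 0.79 and 0.32), and TMM turned the first and last to −0.11 and −0.18. Sntb1, encoding beta-1-syntrophin, had 4.32 to 16.1 CPM in control limbs. It had 8.99 to 18.7 in atrophy limbs, 4.50 to 10.03 in recovery limbs and 3.39 to 14.7 in repeated atrophy limbs, and was not called. In animal 364 Sntb1 was low in both limbs, at 3.39 CPM on the left and 4.32 on the right.

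Sgcb, encoding beta-sarcoglycan, fell in repeated atrophy, the only call among the 8 tested members that held in every alternative setting. Its row lies on chromosome 14 (34563614 to 34578615, rn7, plus strand). Control limbs ranged from 272 to 470 CPM with a median of 336, and repeated atrophy limbs had 236, 203 and 154 (animals 364, 365 and 366), all below control. Atrophy limbs had 337, 379 and 271 CPM, and recovery limbs 249, 257 and 258, which also lay below all control limbs. In repeated atrophy the log2 FC was −0.83 (SE 0.18, adjusted p = 0.0017), −0.81 in the blocked fit (adjusted p = 0.0060) and −1.21 after TMM (adjusted p = 3.2e-04). Over the 23 alternative settings the values ran from −1.25 to −0.70. Left minus right, Sgcb was lower in 3 of 3 repeated atrophy animals (−0.81 ± 0.17, SD). The log2 FC was −0.44 in recovery (adjusted p = 0.12) and −0.09 in atrophy (adjusted p = 0.76).

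Sgca, encoding alpha-sarcoglycan, was lower in recovery than in control as deposited. Recovery limbs had 81.1, 89.5 and 97.6 CPM, against 96.9 to 154 in control, and animal 371 of recovery overlapped the lowest control limb. Atrophy limbs had 137, 139 and 172 CPM and repeated atrophy limbs 144, 101 and 145. Against control, Sgca was not called in repeated atrophy after TMM either (−0.38, adjusted p = 0.080, unadjusted p = 0.024), and over all settings that value ran from −0.42 to 0.17. The log2 FC in recovery was −0.52 against control (SE 0.15, adjusted p = 0.038) and −0.73 against atrophy (adjusted p = 0.014), and repeated atrophy was 0.52 above recovery (adjusted p = 0.040). With the block none of the 3 was called (adjusted p = 0.22, 0.62 and 0.26), where it called 9, 2 and 12 of all rows. TMM kept the first (−0.55, adjusted p = 0.029) and lost the others (−0.39, adjusted p = 0.19, and 0.17, adjusted p = 0.58). Against control the recovery call was lost without any of animals 362, 369, 370, 371, 365 and 366 (adjusted p between 0.0502 and 0.22). The recovery against atrophy call was lost without animal 372, 369 or 370 (adjusted p between 0.053 and 0.077), and that of repeated atrophy against recovery without 369, 370, 371, 364 or 366 (between 0.0504 and 0.16).

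Sgcd, encoding delta-sarcoglycan, was lower in repeated atrophy than in recovery. Repeated atrophy limbs had 8.92, 12.2 and 11.1 CPM, recovery limbs 18.6, 19.9 and 17.99, atrophy limbs 18.6, 18.8 and 14.8, and control limbs 10.1 to 22.8. The 2 groups compared did not overlap, and the log2 FC was −0.76 (SE 0.23, adjusted p = 0.019), −1.09 after TMM (adjusted p = 0.0028) and −0.77 with the block, where it was not called (adjusted p = 0.24). The call was also lost without animal 369, 370 or 364 (adjusted p between 0.066 and 0.079). Against control, repeated atrophy gave −0.46 (adjusted p = 0.063), which TMM moved to −0.81 (adjusted p = 0.0025).

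**Figure D3:**
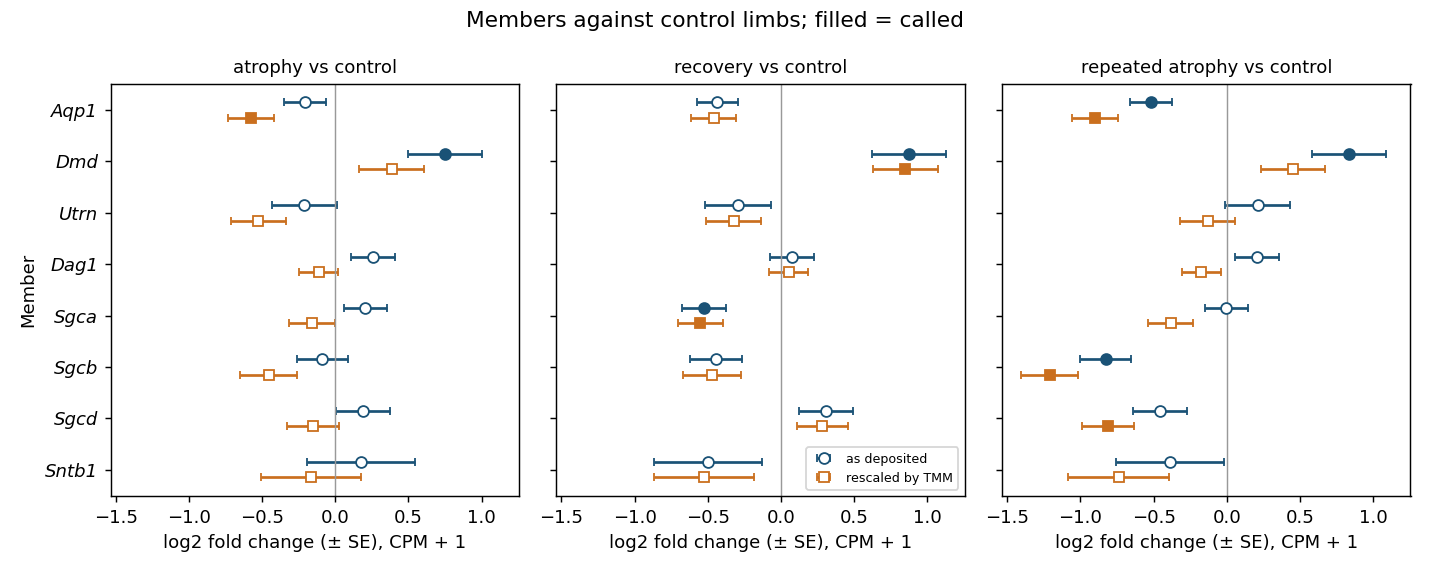
Log2 fold change of CPM + 1 against the 9 control limbs (x axis, with SE) for the 8 tested members (y axis) in atrophy, recovery and repeated atrophy, as deposited (circles) and rescaled by TMM (squares), filled where called. Sgcb and Aqp1 are filled on both scales in repeated atrophy, and Dmd is filled in all 3 panels as deposited and in recovery alone after TMM.

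The counts of called members stood beside the calls over all 14031 rows. In atrophy 1 of 8 members was called higher and 0 lower, where 20.3% of rows were called higher and 2.33% lower. In recovery 1 was higher and 1 lower, against 4.4% and 3.33% of rows. In repeated atrophy 1 was higher (Dmd) and 2 lower (Aqp1 and Sgcb), against 28.1% and 6.24%. Rescaled, 1 member was lower in atrophy (Aqp1), beside 4.73% of rows higher and 4.95% lower, and 3 were lower in repeated atrophy (Aqp1, Sgcb and Sgcd), beside 13.1% and 12.1%. In recovery, rescaled, 1 was higher (Dmd) and 1 lower (Sgca), beside 6.04% of rows in each direction, and with the block 0 were called, beside 0.0428% higher and 0.0214% lower. With the block, 2 members were lower in repeated atrophy (Aqp1 and Sgcb), beside 21.5% of rows higher and 5.66% lower. The median log2 FC of the 8 members was 0.18 in atrophy, −0.36 in recovery and −0.20 in repeated atrophy, where all rows had 0.22, 0.02 and 0.20. These shares of all rows depended on single animals. In atrophy 3171 rows were called, and 1 was called without animal 362, 1830 without 372, 2072 without 369 and 4841 without 367. In recovery 1084 were called, and 184, 457, 537 and 622 without animals 369, 370, 371 and 365. In repeated atrophy 4812 were called, and 2573 without animal 365.

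Between treated groups, recovery against atrophy gave 0 members higher and 1 lower (Sgca), with 3.34% of rows higher and 14.5% lower. Repeated atrophy against recovery gave 1 higher (Sgca) and 1 lower (Sgcd), with 21% and 6.29% of rows. Repeated against initial atrophy gave 0 calls by limma among the 8 members, with 0.0356% of all rows called, and 2 members had an unadjusted p under 0.05, Sgcb (log2 FC −0.74, adjusted p = 0.35) and Sgcd (−0.65, adjusted p = 0.54). These shares of all rows moved too. Recovery against atrophy called 2505 rows, and 770 higher and 729 lower after TMM, 2 in all with the block, and 398, 444, 1023, 1243 and 3704 without animals 370, 369, 362, 372 and 367. Repeated atrophy against recovery called 3823 rows, and 1479 higher and 1564 lower after TMM, 12 in all with the block, and 1844, 2108 and 2437 without animals 370, 369 and 365. Repeated against initial atrophy called 5 rows, and 0 to 36 without 1 animal (36 without 362 and 26 without 364). The comparisons against control share the same 9 limbs, and the counts are not independent of each other.

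The limbs labelled sham were compared left against right and with control. Aqp4 summed to 193, 127 and 41.9 CPM in the left and 170, 178 and 56.3 in the right limbs (animals 354, 377 and 379), so that animal 379 was low on both sides. Left against right, the main Aqp4 row differed by −0.10 (SE 0.16, adjusted p = 0.96, limma with the animal as a block). None of the 8 other members was called left against right, where 0.0% of 13483 rows were called, and 2 had an unadjusted p under 0.05, Aqp1 (−0.21) and Sntb1 (−0.51, both adjusted p = 0.94). Against the 9 control limbs, limma called 0 of 8 members and 0.0% of 13822 rows (1904 rows had an unadjusted p under 0.05), though 118 rows were called without sham animal 377 and 8 without animal 379. Of the 8 members, 0 had an unadjusted p under 0.05 (2 after TMM), and the log2 FC ran from −0.30 for Sntb1 to 0.25 for Aqp1. Aqp1 was 382 to 603 CPM in sham left and 427 to 707 in sham right limbs, where the endothelial markers summed to 334 to 679 and 295 to 785 CPM.

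**Figure D4:**
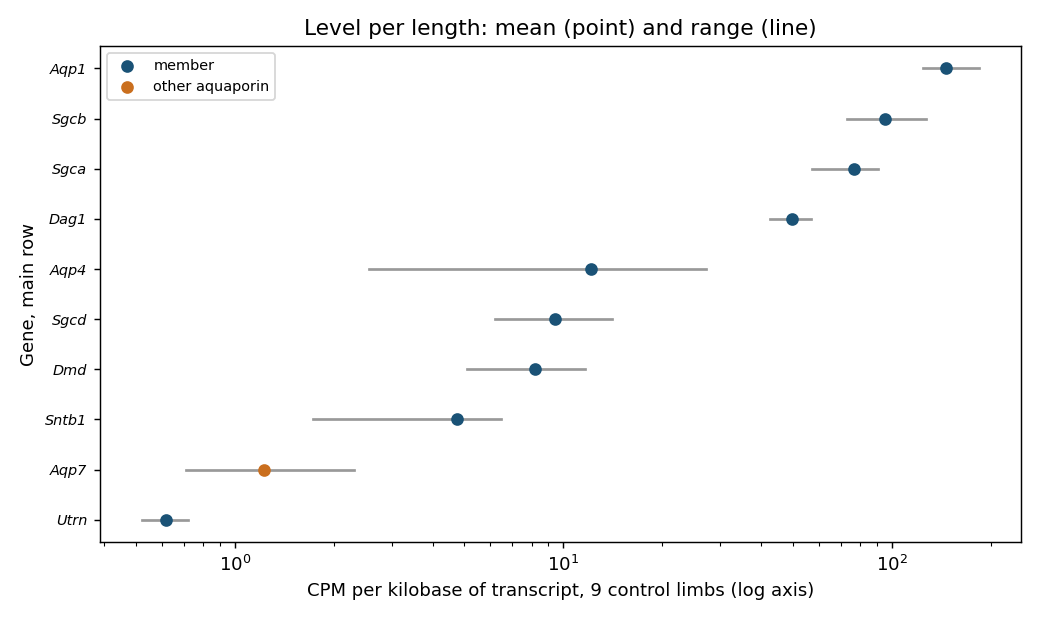
CPM per kilobase of transcript (x axis, log) in the 9 control limbs, mean (point) and range (line), for members and other aquaporins above 0.2 on this scale (y axis). Aqp1 (146) is the highest member and Utrn (0.615) the lowest.

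Per kilobase of transcript, the members spanned a wide range in control muscle. Aqp1 was at 146 ± 19.9 CPM per kilobase, Sgcb at 95.1 ± 19.5, Sgca at 76.7 ± 10.9, Dag1 at 49.7 ± 4.82, Aqp4 (main row) at 12.2 ± 7.22, Sgcd at 9.43 ± 2.21, Dmd at 8.18 ± 2.41, Sntb1 at 4.76 ± 1.38 and Utrn at 0.615 ± 0.064 (SD, n = 9). Neighbours in this order overlapped between limbs except Sgca above Dag1, Dag1 above Aqp4 and Sntb1 above Utrn. The place of Aqp4 is that of 1 of its 4 rows. The 4 rows together were not set per kilobase, so the gap to Dag1 holds for the main row alone.

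Of the other genes of the complex, Cav3 was called against control. Of 12 listed, 9 were tested and Sgcz, Sntg1 and Dtna were not analysed here. None was called in atrophy, where 20.3% of all rows were higher and 2.33% lower, or in recovery, with 4.4% and 3.33%. In repeated atrophy, with 28.1% and 6.24%, 0 of 9 were higher and 1 lower, Cav3, encoding the muscle caveolin that binds dystroglycan: it averaged 103 ± 26.6 CPM in control, 69.1 ± 14.1 in atrophy, 97.5 ± 11.7 in recovery and 21.4 ± 9.81 in repeated atrophy. Its log2 FC was −2.25 (SE 0.25, adjusted p = 2.6e-05; −2.19 and adjusted p = 0.0023 with the block), and the call held in all 23 alternative settings. Against recovery Cav3 was lower by −2.21 (adjusted p = 4.1e-04), a call lost with the block (−1.78, adjusted p = 0.088). Nos1, the neuronal nitric oxide synthase held at the membrane by syntrophin, had 5.19 to 67.5 CPM in repeated atrophy and 5.89 to 23.2 in control (log2 FC 0.78, adjusted p = 0.31).

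Of the genes that attach the laminin-binding sugar of dystroglycan, 18 were tested. Among them 2 were called higher in atrophy, Pomgnt1 (0.59, adjusted p = 0.036) and Pomt1 (0.60, adjusted p = 0.039), and 1 lower in recovery, the kinase Pomk (−0.61, adjusted p = 0.042, lost with the block at adjusted p = 0.15). Both atrophy calls were lost with the block (adjusted p = 0.31 and 0.42), after TMM (0.35 and 0.34) and in 6 of the 9 fits without 1 animal. The block called 0 of all rows in atrophy and 9 in recovery. In repeated atrophy 4 were higher (B4gat1, Pomgnt1, Pomt1 and Pomt2) and 2 lower, B3galnt2 among them, where 28.1% and 6.24% of all rows were called higher and lower (20.3% higher in atrophy and 3.33% lower in recovery). The calls of B4gat1, Pomgnt1 and Pomt2 were lost with the block (adjusted p = 0.057, 0.055 and 0.053) and after TMM (0.61, 0.31 and 0.37). Pomgnt1 was also not called without animal 364, 365 or 366 (adjusted p between 0.051 and 0.082), and Pomt2 without 364 or 365 (0.084 and 0.10). Pomt1, a subunit of the enzyme that adds the first mannose, rose from 16.9 ± 3.73 to 27.5 ± 5.39 CPM (0.68, adjusted p = 0.014), and TMM left it uncalled (0.32, adjusted p = 0.16). Without animal 366 it was also not called (adjusted p = 0.12). B3galnt2, which adds N-acetylgalactosamine to that chain, fell from 97.97 ± 10.8 to 63.0 ± 9.48 CPM (−0.63, adjusted p = 0.0021) and kept its call in all 23 alternative settings. The median log2 FC of the 18 genes was 0.26, −0.16 and 0.17 in atrophy, recovery and repeated atrophy.

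On the outer side, 9 of 13 listed genes of laminins, their integrin receptor and neighbours were tested, and Lama2, Lamb1, Hspg2 and Nid1 were not analysed here. In atrophy 3 were higher (Bgn, Itgb1 and Lama5), in recovery 1 (Bgn), and in repeated atrophy 4 were higher (Bgn, Itgb1, Lama5 and Lamc1) and 1 lower (Lamb2), where 20.3% of all rows were higher in atrophy, 4.4% in recovery and 28.1% in repeated atrophy, with 6.24% lower there. In atrophy Bgn had a log2 FC of 1.43 (adjusted p = 0.035), which was 0.63 without animal 362 (adjusted p = 0.45) and 2.36 without animal 367 (adjusted p = 1.1e-04), and the call was lost in 6 of 9 fits without 1 animal (362, 372, 369, 371, 364 or 365), after TMM (adjusted p = 0.11) and with the block (0.18). Itgb1 and Lama5 in atrophy were not called with the block (adjusted p = 0.20 and 0.15) or without animal 362 (both 0.17), and Lama5 also not without 372 (0.11) or after TMM (0.057). In atrophy 0 of all rows were called with the block and 1 without animal 362. In repeated atrophy the Lamc1 call was lost with the block (adjusted p = 0.094) and after TMM (0.77), and Lamb2 was not called without animal 364 or 365 (0.077 and 0.075). Lama5, the laminin alpha-5 chain, averaged 25.6 ± 13.0 CPM in control and 150 ± 73.0 in repeated atrophy (2.53, adjusted p = 2.5e-04), and Bgn, the proteoglycan biglycan that binds sarcoglycans, 32.1 ± 9.41 and 185 ± 19.6 (2.54, adjusted p = 6.3e-04). Both kept these repeated atrophy calls in all 23 alternative settings. In recovery, where Bgn was at 129 ± 52.8 CPM (1.95, adjusted p = 0.018; 0.15 with the block), 5 fibroblast markers summed to 1022 to 1918 CPM against 194 to 528 in control, and their part in the Bgn difference was not tested. That call was lost without animal 369 or 371 (adjusted p = 0.087 and 0.11). The median log2 FC of the 9 genes was 0.42, 0.22 and 0.44.

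On the inner side, 8 of 9 listed genes of the cytoskeleton were tested, and Ank2 was not analysed here. In atrophy and in repeated atrophy the same 2 were called higher (Krt8 and Kif5b) and the same 1 lower (Actg1), beside 20.3% and 2.33% of all rows in atrophy and 28.1% and 6.24% in repeated atrophy. None of the 8 was called between the 2 atrophy groups. In atrophy the log2 FC was 3.08 for Krt8 (adjusted p = 0.0060), 1.53 for Kif5b (adjusted p = 0.0071) and −0.60 for Actg1 (adjusted p = 0.042). All 3 atrophy calls were lost with the block (adjusted p = 0.15, 0.18 and 0.44) and without animal 362 (0.13, 0.13 and 0.24), and that of Actg1 in 6 of 9 fits without 1 animal. Over all rows, 0 were called in atrophy with the block and 1 without animal 362. The losses in these 2 settings were therefore not particular to the 3 genes. Krt8, a keratin found where the contractile apparatus meets the membrane, averaged 2.96 ± 2.05 CPM in control and 61.0 ± 8.85 in repeated atrophy (4.16, adjusted p = 9.1e-05), and Kif5b, a kinesin motor, 44.2 ± 13.1 and 175 ± 25.1 (2.00, adjusted p = 2.4e-04). Actg1, the gamma-actin that dystrophin binds beneath the membrane, fell from 150 ± 40.5 to 78.2 ± 5.45 CPM in repeated atrophy (−0.88, adjusted p = 0.0033). In recovery Actg1 averaged 239 ± 27.9 CPM (0.72, adjusted p = 0.041), a call lost with the block (0.34, adjusted p = 0.36), after TMM (adjusted p = 0.074) and in 7 of 9 fits without 1 animal. Synm, the intermediate filament gene synemin, was lower in recovery (−0.64, adjusted p = 0.033), and not with the block (−0.37, adjusted p = 0.30) or in 6 of 9 fits without 1 animal (362, 369, 370, 371, 365 or 366, adjusted p between 0.0503 and 0.21). Actg1 shares most of its coding sequence with Actb, and how reads common to both were counted is not given in the sources used here. The repeated atrophy calls of these 3 genes held in all 23 alternative settings.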

How the data were processed

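RNA from both tibialis anterior muscles of 12 rats was sequenced from directional libraries of polyadenylated RNA. The authors removed contaminant reads with Bowtie2 2.2.5, aligned what remained to rn7 by STAR within Partek Flow. The gene models and how reads were counted are not given in the sources used here. The table deposited by the authors holds CPM (each column sums to 1000000), while their methods speak of DESeq2's median of ratios. The planned tests for normalized values were kept. Low values were whole multiples of 1 step, within 0.02 reads, in only 82.7% to 84.9% of cases, so whole reads could not be rebuilt and count models were left aside.

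Of 27 value columns, 24 matched a sample and 3 were not used. From 14271 rows, 28 exact duplicates were dropped, and rows above 0 in at least 3 fitted limbs were tested. Values were log2(CPM + 1), modelled in limma 3.58.1 under R 4.3.3 with its trend option, the 4 groups of treated animals together. Sham left limbs were fitted separately with control, and with sham right limbs under an animal block. The script was tested on simulated data. Python 3.11.15, numpy 2.4.6, pandas 2.3.3 and matplotlib 3.10.9 were used.

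The limbs carry animal numbers, so the animal as a block is a true pairing. In the 9 TTX animals, how far the left and the right limb lay from their group means correlated with r from −0.19 to 0.60 over 10619 rows, and in the sham animals from 0.62 to 0.84. Nothing else says how limbs within a group relate, so each animal was taken as 1 replicate.

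Members and gene lists were chosen with earlier results of these data known. The text names all members, the listed aquaporins, complex genes and partners where needed, and up to 4 of the largest called changes of each longer list. The 5 rows most like Aqp4 are also named. Some listed genes count in their list and are not reported singly here. Alternatives were pseudocounts of 0.1 and 10, TMM, quantile normalization, no filter, means of at least 1 or 10 CPM and summed rows. Others were limma without trend, a fold change of at least 1.5, the block, 12 right limbs as control, only the groups compared, and leaving out each animal. The block together with TMM was added after seeing the data. Promoters are RefSeq GRCr8, with 7 of 9 members matched (Sntb1 and Dag1 were not), and no coordinate was moved between builds.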

Additional observations from a re-analysis of the deposited data

Results flagged for a closer look

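Alpha-sarcoglycan (Sgca) differed between treated groups: its difference from control was not the same in recovery as in either silenced group, by a direct test of the difference (limma). The log2 FC was −0.73 in recovery against atrophy and 0.52 in repeated atrophy against recovery. Delta-sarcoglycan (Sgcd) differed in the same way between repeated atrophy and recovery, with a log2 FC of −0.76. After TMM the Sgca values were −0.39 (adjusted p = 0.19) and 0.17 (adjusted p = 0.58), neither called, and that of Sgcd was −1.09 (adjusted p = 0.0028). None of these 3 differences was called in the fit that pairs the limbs within animals. A control limb was marked where its gap to the nearest limb exceeded 0.493 of the range of the 9 limbs (Dixon, 95%), which chance alone gives in about 1 of 20 groups. Of 10 sets of control values (the 9 members and the Aqp4 sum), 0 held a limb past it on the CPM scale, and 2 did on the log2(CPM + 1) scale, which was examined after the values had been seen. The right limb of animal 372 had 24.03 CPM of summed Aqp4, where the next limb had 103, a gap of 0.564 of the log2 range. The right limb of animal 364 had 4.32 CPM of Sntb1, where the next had 9.49, a gap of 0.580.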

How the results depend on the processing

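The groups hold 3 treated limbs each, and with 1 read worth 0.0324 to 0.053 CPM the repeated atrophy values of Aqp7 and of the lowest Aqp4 limbs rest on few reads. Of 27 tested member values, 7 kept their direction and stayed called or uncalled in all settings. Of these 7 only Sgcb in repeated atrophy was a call. Aqp1, Sgcb, Sgcd, Sntb1 and Utrn in recovery and Utrn in atrophy were called in no setting. In the fits with the animal as a block (left against right limb), the number of the 8 members called was 0 in atrophy, 0 in recovery, 2 in repeated atrophy, 0 in recovery against atrophy and 0 in repeated atrophy against recovery, where the fit without it gave 1, 2, 3, 1 and 2. The block changed no call of Aqp1, Utrn, Dag1, Sntb1 or Sgcb. With the block and TMM together, the counts were 0, 0, 2, 0 and 0. Fitting only the groups compared gave 0 in atrophy and 1 in repeated atrophy against recovery. In recovery against control, 12 right limbs as control, a fold change of at least 1.5 and quantile normalization gave 1 each. A fold change of at least 1.5 gave 1 in repeated atrophy against recovery. In recovery against atrophy, TMM and quantile normalization gave 0 each. Leaving out each animal gave 0 to 1 in atrophy, 0 to 2 in recovery, 1 to 3 in repeated atrophy, 0 to 1 in recovery against atrophy, 0 to 2 in repeated atrophy against recovery, and 0 in repeated against initial atrophy and in both sham comparisons. The causes were not tested.

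Signs turned in uncalled values. In atrophy against control, TMM, quantile normalization and the block with TMM gave Dag1 −0.11, −0.10 and −0.041, Sntb1 −0.17, −0.17 and −0.13, Sgca −0.16, −0.18 and −0.16, and Sgcd −0.15, −0.17 and −0.31, with Sgcd at −0.058 under the block alone. In repeated atrophy the same 3 settings gave Utrn −0.13, −0.10 and −0.22 and Dag1 −0.18, −0.19 and −0.13. Dag1 in recovery was −0.062 under the block with TMM. Sgca in repeated atrophy was 0.052 with 12 right limbs as control and 0.063 under the block. Leaving out 1 animal gave −0.061 to 0.39 for Sntb1 and −0.14 to 0.070 for Sgcb in atrophy, and −0.70 to 0.013 for Sntb1 and −0.14 to 0.17 for Sgca in repeated atrophy. Counts over all rows also moved: 3171, 1084 and 4812 rows were called in atrophy, recovery and repeated atrophy, 1358, 1696 and 3538 after TMM and 0, 9 and 3806 with the block. Leaving out 1 animal gave 1 to 4841, 184 to 1478 and 2573 to 5254. The share called lower was 10.3%, 43.1% and 18.2%, and 51.2%, 50.0% and 47.9% after TMM.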

Other observations

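Markers of other cells that a whole muscle holds were also measured. In recovery against control, 4 of 5 fibroblast markers were called higher as deposited (Col1a1 and Col3a1, fibrillar collagen genes, and Dcn and Lum, small proteoglycan genes), with a median log2 fold change of 2.58 over the list against 0.02 over all rows, of which 4.4% were called higher. Adgre1, Cd3e and Cd68, 3 of 5 leukocyte markers, were also called higher in recovery, where the list summed to 48.9 to 101.0 CPM against 13.99 to 60.2 CPM in control. Sham limbs summed to 34.04 to 63.35 CPM on the left and 29.14 to 64.18 on the right, which overlapped the recovery limbs. After TMM rescaling all 5 of each list were called higher in recovery, beside 6.04% of all rows, and with the replicate block 0 of each, beside 0.0428%. Neither list had a call in atrophy or repeated atrophy as deposited.

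Of 3 satellite cell markers, Pax7 was not called in any comparison (log2 fold change −0.24 in atrophy, adjusted p = 0.50, and 0.20 in repeated atrophy, adjusted p = 0.58). Myf5, a myogenic factor of satellite cells, was called higher in atrophy and in repeated atrophy, and Cdh15, the M-cadherin gene, was called lower in recovery and in repeated atrophy. Over all rows 20.3% and 28.1% were called higher in atrophy and repeated atrophy, and 2.33%, 3.33% and 6.24% lower in atrophy, recovery and repeated atrophy. Of 10 muscle fibre markers, the slow myosin heavy chain gene Myh7 was called lower in atrophy and in repeated atrophy. Lower means were not particular to Myh7. Ckm averaged 28552 CPM in control, 14481 in atrophy and 15624 in repeated atrophy. All marker means were below control in atrophy except that of Myh2, and in repeated atrophy except those of Myh2 and Tnnt3. Of 5 Schwann cell markers 1, the myelin gene Prx, was called lower in atrophy (log2 FC −0.74, adjusted p = 0.030), not with the replicate block (adjusted p = 0.25). In repeated atrophy Prx was at −0.52 and not called as deposited (adjusted p = 0.096), and it was called with the block (−0.78, adjusted p = 0.039) and after TMM (−0.86, adjusted p = 0.017). With the replicate block the calls of Myf5, Cdh15 and Myh7 were kept in repeated atrophy and lost in the other comparisons. The block called 0 of all rows in atrophy and 9 in recovery.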
